A study of Mus musculus with 4 samples.

Results

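The matrix glycoproteins and proteoglycans described here were 47 genes picked by symbol, of which 44 had a row among the 12661 genes of the deposited table. *Has1*, *Fbn2* and *Fmod* were not analysed here. The 44 genes fell into 5 roles, with 11 of the provisional matrix, 12 of elastic fibres and microfibrils, 4 of the basement membrane, 6 small leucine-rich proteoglycans and 11 other matrix glycoproteins. RNA was sequenced from tissue lying outside the femoral artery, described in the study as mainly perivascular adipose tissue (PVAT), of wild type C57BL/6 female mice. All mice had been ovariectomized, and the labels give an age of 11 weeks. The injury group (2 libraries) was collected 48 h after a wire of 0.38 mm was passed into the artery, and the sham group (2 libraries) 48 h after a sham operation. The design sets injury against sham in the tissue that surrounds the injured vessel, so the wall of the artery itself was not the intended sample. Nothing in the labels says whether each library came from 1 mouse or from a pool, so p-values measure only the spread between these libraries, which may be technical.

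Extracellular matrix is laid down as fibrils of collagen and elastin decorated with glycoproteins and proteoglycans that set their spacing, assembly and binding to cells. After injury a provisional matrix rich in fibronectin, hyaluronan, versican, tenascin C, osteopontin and thrombospondin typically fills the wound and is read by integrins and by CD44. In the vessel wall, elastic fibres are built by smooth muscle cells and fibroblasts on microfibrils of fibrillin with the help of fibulins, and the basement membrane joins laminin and type IV collagen through nidogen and perlecan.

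After injury 3 of the 44 genes were higher (*Spp1*, *Cd44* and *Emilin2*) and 7 were lower (*Fbln2*, *Fbln5*, *Nid1*, *Agrn*, *Dcn*, *Lum* and *Mgp*) at an adjusted p under 0.05. The rises belonged to osteopontin, the hyaluronan receptor and 1 elastic microfibril interface protein, and the falls to fibulins, linkers of the basement membrane, collagen-binding proteoglycans and matrix Gla protein. Over all 12661 genes, 3.76% were called higher and 3.67% lower. The median difference of the 44 genes was -0.58, against 0.01 over all genes, and 35 of the 44 differences were negative. In 28 of the 44 genes both injury libraries lay below both sham libraries, and in 6 both lay above, where 30.3% and 31.6% of all genes did so. At an unadjusted p under 0.05, 24 of the 44 were lower and 5 higher, where 14.8% of all genes were lower and 14.8% higher. At an adjusted p under 0.1, 17 were lower and 5 higher, beside 9.09% and 9.21% of all genes, and with a difference of at least 1 unit required as well as an adjusted p under 0.05, 3 were lower and 2 higher, beside 2.14% and 2.53%.

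Values are in deposited units, a signed log-like scale whose base and reference are not given. Each library has values on both sides of 0 with a median near it, so a value of 0 is not the absence of transcript, levels of different genes cannot be set against each other, and no fold is given. Differences are injury minus sham with their standard error (SE) from a limma fit over all genes, and adjusted p-values are Benjamini-Hochberg values over the 12661 genes. For 1 gene alone, 2 libraries against 2 allow no exact permutation p (two-sided) under 0.333, and the calls therefore rest on the spread shared between genes. In bulk tissue, fewer cells of a type and less RNA per cell cannot be told apart.

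**Figure D1:**
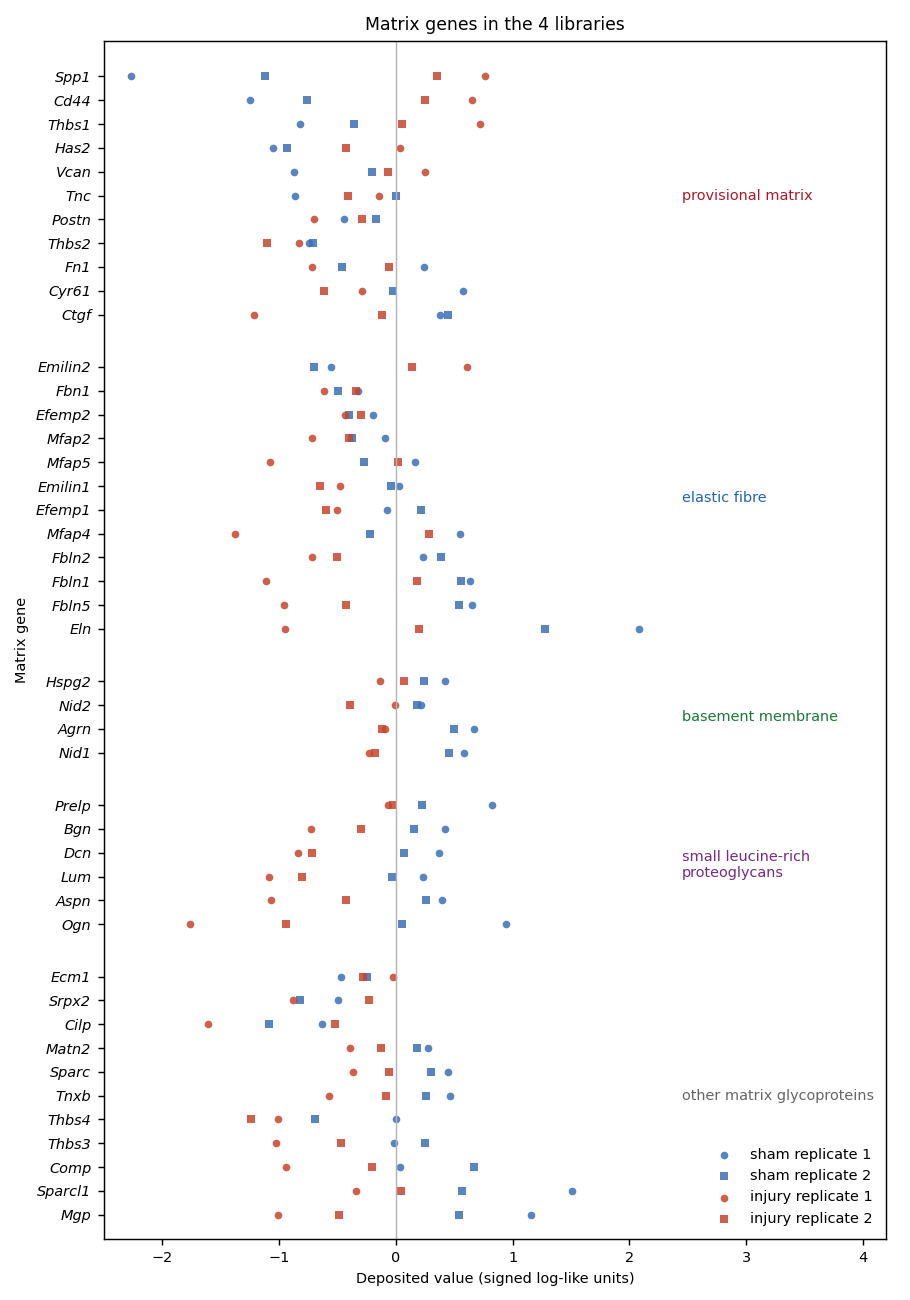
Deposited value (signed log-like units) of each of the 44 genes in the 2 sham and 2 injury libraries, grouped by role. *Spp1*, *Cd44* and *Emilin2* lie lower in both sham than in both injury libraries, and the small leucine-rich proteoglycans lie higher in both sham libraries.

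Of the 44 genes, 30 matched a promoter in a RefSeq table of the GRCm38.p6 assembly, with 40 start sites, and each 250 bases before a start was placed on mm9 by exact match. No entry was used for *Fn1*, *Thbs1*, *Has2*, *Ctgf*, *Eln*, *Mfap4*, *Mfap5*, *Nid2*, *Dcn*, *Lum*, *Sparcl1*, *Comp*, *Mgp* and *Matn2*. The 5 printed below are *Spp1* and *Cd44*, the largest called rises, *Nid1*, a called fall, and *Ogn* and *Cyr61*, further genes whose promoters hold the same letters as that of *Nid1*. They run 5′ to 3′ on the strand of the gene and end at the base before the RefSeq start. Capitals mark the TEAD motif GGAATG, or its reverse complement CATTCC, in *Nid1*, *Ogn* and *Cyr61*, and the sequences of *Spp1* and *Cd44* hold neither. On mm9 they are chr5:104863880-104864129 (plus strand) for *Spp1*, chr2:102741823-102742072 (minus strand) for *Cd44*, chr13:13529619-13529868 (plus) for *Nid1*, chr13:49703134-49703383 (plus) for *Ogn* and chr3:145312950-145313199 (minus) for *Cyr61*.
Spp1: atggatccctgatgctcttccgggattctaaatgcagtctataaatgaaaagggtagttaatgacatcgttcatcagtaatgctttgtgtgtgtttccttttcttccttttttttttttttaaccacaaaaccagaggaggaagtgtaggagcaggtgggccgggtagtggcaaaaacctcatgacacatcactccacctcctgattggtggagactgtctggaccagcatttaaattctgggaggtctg
Cd44: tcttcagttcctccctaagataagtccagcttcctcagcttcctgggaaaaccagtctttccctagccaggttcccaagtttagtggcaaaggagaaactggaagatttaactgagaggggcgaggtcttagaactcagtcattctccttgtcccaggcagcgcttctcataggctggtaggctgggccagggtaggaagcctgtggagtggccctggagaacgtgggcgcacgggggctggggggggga
Nid1: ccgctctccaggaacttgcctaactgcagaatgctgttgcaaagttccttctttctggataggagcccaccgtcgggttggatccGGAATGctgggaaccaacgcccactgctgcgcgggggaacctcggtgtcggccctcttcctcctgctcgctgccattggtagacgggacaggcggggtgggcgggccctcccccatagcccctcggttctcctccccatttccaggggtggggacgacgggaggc
Ogn: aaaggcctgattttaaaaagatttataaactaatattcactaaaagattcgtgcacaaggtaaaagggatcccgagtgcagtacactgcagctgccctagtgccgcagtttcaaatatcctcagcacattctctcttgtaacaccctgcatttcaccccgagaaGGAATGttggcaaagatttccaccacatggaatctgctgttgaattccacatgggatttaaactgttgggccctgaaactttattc
Cyr61: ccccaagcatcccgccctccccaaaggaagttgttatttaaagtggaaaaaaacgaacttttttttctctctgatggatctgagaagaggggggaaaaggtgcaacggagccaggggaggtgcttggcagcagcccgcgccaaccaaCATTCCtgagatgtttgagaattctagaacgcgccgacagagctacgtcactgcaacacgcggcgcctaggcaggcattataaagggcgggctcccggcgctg

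The motif GGAATG, read on both strands, is bound by TEAD factors, through which YAP acts on matricellular genes. It stood 165 to 160 bases before the start in *Nid1*, 86 to 81 bases before it in *Ogn*, and 103 to 98 bases before it, as CATTCC, in *Cyr61*. The same letters were found at 6 of the 40 start sites (15.0%), those of *Cyr61*, *Emilin2*, *Mfap2*, *Nid1*, *Ogn* and *Thbs4*, and at 12.6% of all 32851 promoters of the same length. Among these genes *Nid1* fell and *Emilin2* rose, the motif of *Emilin2* standing before an inner start. The other 4 did not reach an adjusted p under 0.05 in the limma fit of the deposited values. *Ogn* did so after quantile normalization (limma, adjusted p = 0.0275) and after scaling of the columns (limma, adjusted p = 0.0398). The AP-1 motif TGANTCA, bound by Fos and Jun proteins, was found at 4 of the 40 start sites (*Ecm1*, *Efemp1*, *Srpx2* and *Tnxb*) and at 6.75% of all promoters. No CArG box, the site of serum response factor, was found at the 40 starts, and 1.47% of all promoters held one. No overlap between the motifs was present in the 5 printed sequences, which hold neither of the other motifs. A match describes the letters in this window only.

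In the provisional matrix, *Spp1* and *Cd44* rose and none of the other 9 genes passed the test. Differences ranged from -1.08 for *Ctgf* to 2.25 for *Spp1*, 6 of the 11 were positive, and the median was 0.15 (0.0503 to 0.581 on leaving out 1 library). *Spp1* (chr5:104864137-104870069, plus strand) encodes osteopontin, a secreted phosphoprotein that binds integrins and CD44 and is made by macrophages among other cells. Its values were -2.27 and -1.12 in the sham libraries and 0.76 and 0.35 in the injury libraries. Both injury values stood above both sham values, and the sham libraries lay further apart than the injury libraries. The difference was 2.25 ± 0.39 (SE; limma, adjusted p = 0.0370).

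*Cd44* (chr2:102651298-102741822, minus strand) encodes the cell-surface receptor of hyaluronan, which also binds osteopontin. Sham values were -1.25 and -0.77, and injury values 0.65 and 0.25. The groups did not overlap, and the difference was 1.46 ± 0.23 (SE; limma, adjusted p = 0.0318), the lowest adjusted p among the 44 genes. Its ligand is made by hyaluronan synthases, of which *Has2* measured -1.06 and -0.93 in sham and 0.03 and -0.43 in injury. *Has2* thus lay higher in both injury libraries, but its difference of 0.79 ± 0.19 (SE) had an adjusted p of 0.0669 in the limma fit.

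*Thbs1*, a thrombospondin that releases latent TGF-β, and *Vcan*, the large proteoglycan that binds hyaluronan, had the same order of libraries without passing the test. *Thbs1* measured -0.82 and -0.36 in sham and 0.72 and 0.05 in injury, a difference of 0.98 ± 0.28 (SE; adjusted p = 0.0899). *Vcan* measured -0.87 and -0.21 in sham and 0.25 and -0.06 in injury, a difference of 0.63 ± 0.26 (SE; adjusted p = 0.176). For both genes every injury library stood above every sham library.

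Genes that often mark a fibroblast scar gave no such order. *Fn1*, fibronectin, measured 0.24 and -0.46 in sham and -0.72 and -0.06 in injury, with a difference of -0.28 ± 0.32 (SE; adjusted p = 0.602). *Tnc*, tenascin C, measured -0.86 and 0.00 in sham and -0.15 and -0.41 in injury, with a difference of 0.15 ± 0.30 (SE; adjusted p = 0.777). *Postn*, periostin, measured -0.45 and -0.17 in sham and -0.70 and -0.29 in injury, with a difference of -0.19 ± 0.20 (SE; adjusted p = 0.570). In these 3 genes the groups overlapped, and the libraries of each group lay further apart than the group means did.

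*Thbs2*, an antiangiogenic thrombospondin, lay at -0.74 and -0.71 in sham and -0.83 and -1.11 in injury, and its difference of -0.24 had an adjusted p of 0.353. The CCN genes *Ctgf* and *Cyr61*, which encode matricellular proteins, were the only provisional matrix genes whose injury libraries both lay below both sham libraries besides *Thbs2*. *Ctgf* measured 0.38 and 0.45 in sham and -1.21 and -0.12 in injury, a difference of -1.08 ± 0.36 (SE; adjusted p = 0.120), and *Cyr61* measured 0.57 and -0.03 in sham and -0.29 and -0.62 in injury, a difference of -0.73 ± 0.24 (SE; adjusted p = 0.123). Neither passed the test. The difference of *Ctgf* was -0.53 without the first injury library and -1.62 without the second (adjusted p = 0.00808), and that of *Cyr61* was -0.43 without the first sham library.

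Among elastic fibre and microfibril genes the median difference was -0.59 (-0.29 without the first injury library), with 1 of 12 positive, 2 called lower, 1 called higher and 9 not past the test. In 7 of the 12 both injury libraries lay below both sham libraries, against 30.3% of all genes. *Fbln5* (chr12:102984775-103057265, minus strand) encodes fibulin 5, which tethers elastin to microfibrils and is needed for elastic fibre assembly. Its sham values were 0.65 and 0.54 and its injury values -0.96 and -0.43. The groups did not overlap, and the difference was -1.29 ± 0.21 (SE; limma, adjusted p = 0.0329).

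*Fbln2* (chr6:91162449-91222534, plus strand) encodes fibulin 2, found in elastic fibres and basement membranes of vessels. It measured 0.24 and 0.38 in sham and -0.72 and -0.50 in injury, so that the groups were separate, with a difference of -0.92 ± 0.15 (SE; limma, adjusted p = 0.0335). Over the 5 fibulins (*Fbln1*, *Fbln2*, *Fbln5*, *Efemp1* and *Efemp2*) the median difference was -0.92, 2 fell, and 4 had separate groups with the injury libraries lower. Of all genes 30.3% were separate in that direction. *Fbln1* measured 0.64 and 0.56 in sham, and in injury -1.12 in the first library and 0.18 in the second. Its difference was -1.07 ± 0.41 (SE; adjusted p = 0.162), and the distance between the injury libraries was wider than the difference between the group means. Without the first injury library it was -0.42, and without the second -1.71 (adjusted p = 0.00760). *Efemp1* (fibulin 3) had a difference of -0.62 (adjusted p = 0.0750) and *Efemp2* (fibulin 4) one of -0.07 (adjusted p = 0.787).

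*Eln*, which encodes tropoelastin, the soluble precursor of elastin, had the lowest difference of the 44 genes. It measured 2.08 and 1.28 in sham and -0.95 and 0.20 in injury, all sham values above all injury values. The difference was -2.05 ± 0.44 (SE), and its adjusted p of 0.0537 in limma lay just above the threshold. Over the alternatives tried its adjusted p ran from 0.0129 to 0.263.

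*Emilin2* (chr17:71601514-71660896, minus strand), a glycoprotein of the elastin-microfibril interface, was the exception in the elastic group. It measured -0.56 and -0.70 in sham and 0.61 and 0.13 in injury, with separate groups and a difference of 0.999 ± 0.198 (SE; limma, adjusted p = 0.0468). Its relative *Emilin1* had a difference of -0.56 (adjusted p = 0.0719), and measured 0.03 and -0.04 in sham and -0.48 and -0.65 in injury. The difference between the 2 genes was not tested.

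No microfibril gene passed the test. *Fbn1*, fibrillin 1, the backbone of microfibrils, had a difference of -0.07 ± 0.16 (SE; adjusted p = 0.819), *Mfap2* of -0.32 (adjusted p = 0.304), *Mfap4* of -0.71 (adjusted p = 0.450) and *Mfap5* of -0.48 (adjusted p = 0.448). In *Mfap4* the first injury library measured -1.38 and the second 0.28, while the sham libraries measured 0.55 and -0.22.

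**Figure D2:**
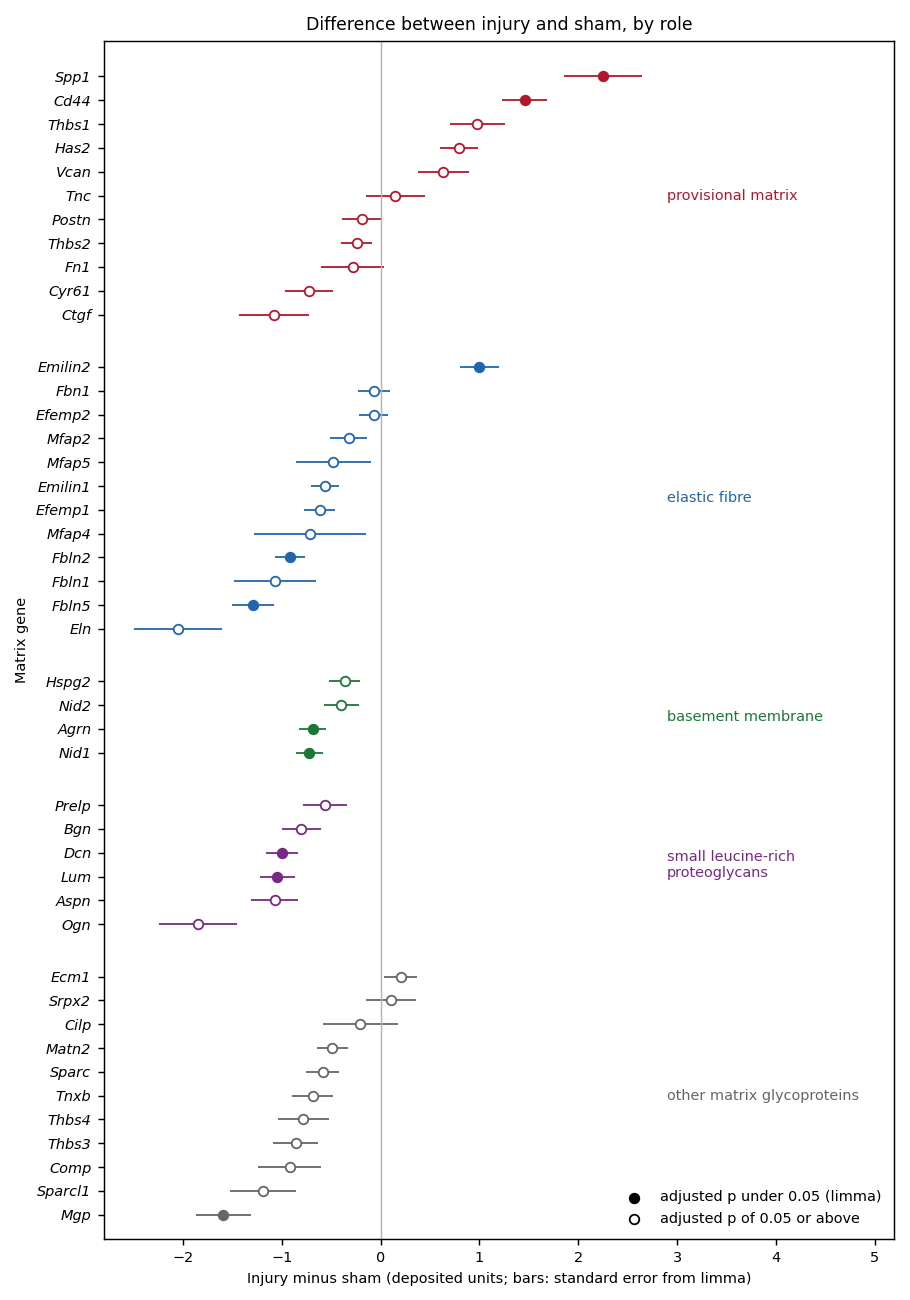
Injury minus sham difference (deposited units) for each of the 44 genes with its SE from limma, by role, with called genes filled. The 3 called rises and 7 called falls stand apart from 0, and the other 34 genes did not pass the adjusted p of 0.05.

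All 4 genes of the basement membrane had both injury libraries below both sham libraries, as 30.3% of all genes did. Their median difference was -0.54. *Nid1* (chr13:13529869-13604542, plus strand) encodes nidogen 1, which links laminin to type IV collagen. It measured 0.58 and 0.46 in sham and -0.23 and -0.18 in injury, a difference of -0.72 ± 0.14 (SE; limma, adjusted p = 0.0435). *Agrn* (chr4:155539399-155571536, minus strand) encodes agrin, a heparan sulfate proteoglycan of basement membranes. It measured 0.67 and 0.50 in sham and -0.09 and -0.11 in injury, a difference of -0.69 ± 0.14 (SE; limma, adjusted p = 0.0489). Neither *Nid1* nor *Agrn* was called with the replicate number as a block (limma, adjusted p = 0.0693 and 0.0739).

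For both called genes the libraries of a group lay closer together than the groups did. *Hspg2*, perlecan, the other large heparan sulfate proteoglycan, measured 0.42 and 0.24 in sham and -0.14 and 0.07 in injury, and its difference of -0.36 ± 0.15 (SE) had an adjusted p of 0.189. *Nid2* measured 0.21 and 0.18 in sham and -0.01 and -0.40 in injury, a difference of -0.40 ± 0.18 (SE; adjusted p = 0.201).

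The small leucine-rich proteoglycans, which bind collagen fibrils and control their diameter, had the lowest median of the 5 roles, -1.02. All 6 analysed genes had both injury libraries below both sham libraries, as 30.3% of all genes did, and 2 passed the test. Decorin is the best known of them, and its gene *Dcn* (chr10:96942245-96980777, plus strand) measured 0.37 and 0.07 in sham and -0.84 and -0.72 in injury. The groups did not overlap, and the difference was -0.996 ± 0.163 (SE; limma, adjusted p = 0.0330). *Lum* (chr10:97028135-97035337, plus strand), lumican, lies 47.4 kb further along on the same strand. It measured 0.23 and -0.04 in sham and -1.09 and -0.80 in injury, a difference of -1.04 ± 0.18 (SE; limma, adjusted p = 0.0345). Neither *Dcn* nor *Lum* was called with the replicate number as a block (limma, adjusted p = 0.0506 and 0.0536).

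*Ogn* and *Aspn*, also neighbours, 40.5 kb apart on chromosome 13 and both inside *Cenpp* on the other strand, stood just above the threshold. *Ogn*, osteoglycin, measured 0.94 and 0.05 in sham and -1.77 and -0.94 in injury, a difference of -1.85 ± 0.39 (SE; adjusted p = 0.0518). *Aspn*, asporin, measured 0.40 and 0.26 in sham and -1.07 and -0.43 in injury, a difference of -1.07 ± 0.24 (SE; adjusted p = 0.0552). *Ogn* therefore had a larger difference than *Dcn* or *Lum*, with a wider spread between libraries. *Bgn*, biglycan, had a difference of -0.80 ± 0.20 (SE; adjusted p = 0.0711), and *Prelp* the smallest, -0.57 ± 0.22 (SE; adjusted p = 0.167), with 0.82 and 0.22 in sham and -0.06 and -0.02 in injury.

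Of the 11 other glycoproteins 1 fell, none rose and the median was -0.69. In 8 of them both injury libraries lay below both sham libraries, against 30.3% of all genes. *Mgp* (chr6:136820957-136824326, minus strand) encodes matrix Gla protein, an inhibitor of calcification made by smooth muscle and cartilage. It measured 1.16 and 0.54 in sham and -1.01 and -0.49 in injury, with no overlap and a difference of -1.59 ± 0.28 (SE; limma, adjusted p = 0.0368). With the replicate number as a block *Mgp* was not called (limma, adjusted p = 0.0530). *Sparcl1*, hevin, a matricellular relative of SPARC, measured 1.51 and 0.57 in sham and -0.34 and 0.04 in injury, a difference of -1.19 ± 0.33 (SE; adjusted p = 0.0875). *Sparc* itself measured 0.45 and 0.30 in sham and -0.37 and -0.06 in injury (difference -0.59, adjusted p = 0.0898).

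*Tnxb*, the tenascin of loose connective tissue, had a difference of -0.69 (adjusted p = 0.0994) and *Matn2*, a filament-forming matrilin, one of -0.49 (adjusted p = 0.1102). The pentameric thrombospondins differed by -0.86 for *Thbs3* (adjusted p = 0.0773), -0.78 for *Thbs4* (adjusted p = 0.119) and -0.92 for *Comp* (adjusted p = 0.132). Over *Thbs1* to *Thbs4* and *Comp*, 1 gene had both injury libraries above both sham libraries and 4 had them below. The shares over all genes were 31.6% and 30.3%. *Thbs4* measured 0.00 and -0.69 in sham and -1.01 and -1.24 in injury, and *Comp* 0.03 and 0.67 in sham and -0.94 and -0.21 in injury. On leaving out 1 library, *Thbs4* ran from -1.13 to -0.44 and *Comp* from -1.29 (adjusted p = 0.0472, without the second injury library) to -0.56. No thrombospondin passed the limma test of group alone with all 4 libraries, and 1 was higher and 3 lower at an unadjusted p under 0.05. *Comp* passed with the replicate number as a block (limma, adjusted p = 0.0463). *Cilp*, *Ecm1* and *Srpx2* had overlapping groups, with differences of -0.20 (adjusted p = 0.758), 0.20 (adjusted p = 0.470) and 0.11 (adjusted p = 0.817).

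**Figure D3:**
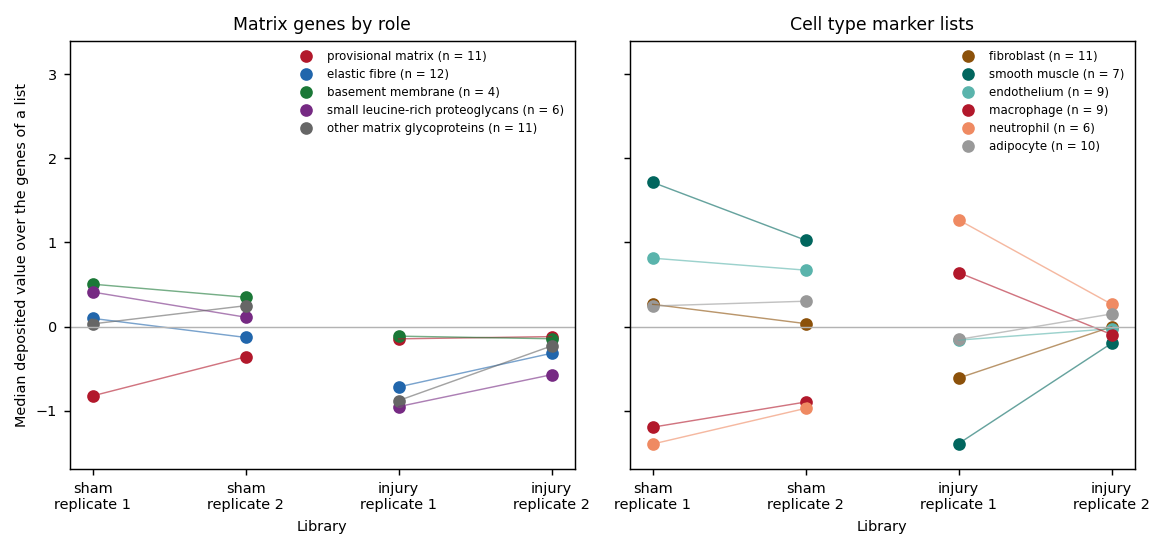
Median deposited value over the genes of each role and of each marker list in the 4 libraries. The small leucine-rich proteoglycans sit at 0.41 and 0.11 in sham and -0.95 and -0.57 in injury, and the smooth muscle markers at 1.72 and 1.03 in sham and -1.39 and -0.20 in injury.

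The 2 injury libraries were not alike for these genes. The first lay below the second in 29 of the 44 genes, in 6467 of all 12661 genes, and in 6 of 6 small leucine-rich proteoglycans. In the provisional matrix the order was the other way, with the first injury library above the second in 8 of 11 genes. The first sham library lay above the second in 30 of the 44 genes, and in 6529 of all genes.

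Markers of smooth muscle, endothelium, macrophages, neutrophils and brown adipocytes moved with the groups, the lists of fibroblast and general adipocyte markers had 1 called gene each, and the part of any of them in the result was not tested. Over all genes, 3.76% were called higher and 3.67% lower, and the groups were separate in 31.6% (higher) and 30.3% (lower). Smooth muscle markers had a median difference of -2.12, with 4 of 7 called lower and no overlap between the groups in any of the 7. Their library medians were 1.72 and 1.03 in sham and -1.39 and -0.20 in injury. Endothelial markers had a median of -0.73 (3 of 9 lower, library medians 0.81 and 0.67 in sham and -0.16 and -0.03 in injury), and Schwann cell markers one of -0.66 (2 of 7 lower; median -0.37 without the first injury library).

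Fibroblast markers, from cells that make most of these proteoglycans, had a median difference of -0.41 with 1 of 11 called lower (*Cd34*), overlapping groups in 8 of 11, and library medians of 0.26 and 0.03 in sham and -0.61 and 0.00 in injury. That median was -0.19 without the first sham library, -0.18 without the first injury library and -0.91 without the second injury library. Activated fibroblast markers had a median of 0.24, with 5 of 8 positive, 3 higher at an unadjusted p under 0.05 and 1 called lower, *Acta2*, which is also in the smooth muscle list. That median was 0.51 without the first injury library and turned to -0.087 without the second. Macrophage markers stood higher, with a median of 1.33, 5 of 9 called higher and library medians of -1.20 and -0.90 in sham and 0.64 and -0.10 in injury, as did neutrophil markers (median 1.87, 2 of 6 called higher, library medians of -1.40 and -0.97 in sham and 1.27 and 0.27 in injury). Adipocyte markers had a median of -0.30 (1 of 10 lower, *Plin1*; 5 of 10 overlapping), which was -0.064 without the first injury library and -0.54 without the second, and brown adipocyte markers one of 1.05 (5 of 7 higher, none of the 7 overlapping). Skeletal muscle markers had a median of -0.70 with 0 of 6 called by limma (1 higher and 2 lower at an unadjusted p under 0.05), and that median was -0.19 without the first sham library and -1.09 without the second. No marker of tendon and cartilage or of mesothelium and epithelium was analysed here. Because the values are relative to a reference that is not given, the lists show shifts between libraries and not which cell types were present.

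Genes that act on this matrix were listed by pathway. The counts called in these lists stand beside 3.76% of all genes called higher and 3.67% called lower. In a list of this size 1 call is therefore not read as a result about the list. Among fibrillar and fibril-associated collagens, 3 of 12 fell, none rose and 9 did not pass, with a median of -0.56 (-0.36 without the first injury library). The falls were of *Col3a1* (-0.96, adjusted p = 0.0440), *Col1a1* (-0.78, adjusted p = 0.0498) and *Col5a2* (-0.78, adjusted p = 0.0407), chains of the fibrils that decorin and lumican bind. Basement membrane collagens and laminins had a median of -0.68 and 4 of 12 falls, of *Col4a5* (-2.18, adjusted p = 0.0308), *Lamb2* (-1.07, adjusted p = 0.0450), *Lama4* (-0.92, adjusted p = 0.0368) and *Col4a1* (-0.69, adjusted p = 0.0455). These are partners of nidogen and perlecan in the basement membrane. In 11 of the 12 listed genes both injury libraries lay below both sham libraries, against 30.3% of all genes. Of 18 crosslinking and collagen-modifying enzymes, 1 fell (*Tgm2*, a transglutaminase, -0.89, adjusted p = 0.0383), and the median was -0.17.

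Among matrix metalloproteinases and their inhibitors, with a median of -0.01 that ran from -0.22 to 0.095 on leaving out 1 library, 2 of 18 rose and 1 fell. The rises were of the macrophage elastase *Mmp12* (2.05, adjusted p = 0.0285) and the neutrophil collagenase *Mmp8* (1.46, adjusted p = 0.0285), and the fall was of *Reck* (-1.03, adjusted p = 0.0461), a membrane inhibitor of these proteases. The ADAMTS proteases, several of which cleave versican and other proteoglycans, had a median of -0.35 and 3 of 12 falls, of *Adamts8* (-2.69, adjusted p = 0.0285), *Adamts1* (-1.30, adjusted p = 0.0454) and *Adamts10* (-0.91, adjusted p = 0.0357). Of 15 integrin subunits, the receptors of fibronectin, osteopontin and laminin, 1 rose (*Itgb7*, 1.57, adjusted p = 0.0326) and 2 fell (*Itga9*, -1.37, adjusted p = 0.0295; *Itga3*, -1.25, adjusted p = 0.0327), with a median of -0.44. Of 11 further genes of hyaluronan turnover and binding, 3 fell, *Tmem2* (-0.91, adjusted p = 0.0407), *Hyal2* (-0.87, adjusted p = 0.0401) and *Hapln3* (-0.86, adjusted p = 0.0338), and the median was -0.55. *Tmem2* and *Hyal2* degrade hyaluronan, the polymer that CD44 binds.

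**Figure D4:**
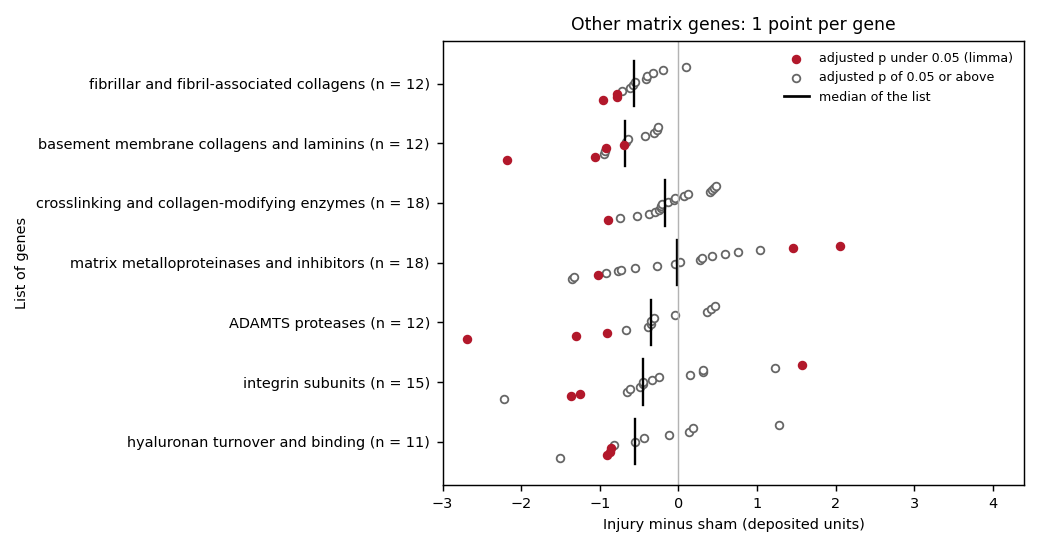
Injury minus sham difference (deposited units) of each gene in the 7 pathway lists, with the genes past the adjusted p of 0.05 marked. *Col4a5* and *Adamts8* lie furthest below 0 among the called genes and *Mmp12* furthest above.

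With the first sham library left out limma called 0 of the 44 genes, and 4 were higher and 14 lower at an unadjusted p under 0.05, as were 1960 of all 12661 genes in either direction. Without the second sham library it called 0 of the 44, with 6 higher and 18 lower at an unadjusted p under 0.05 beside 2553 of all genes, and without the first injury library 0, with 5 and 18 beside 2995. Without the second injury library 5 were called higher and 17 lower, beside 943 and 847 of all genes, and *Agrn* was no longer called (adjusted p = 0.0667). The 13 genes called there but not with all 4 libraries were *Thbs1* and *Has2* (higher) and *Ctgf*, *Eln*, *Fbln1*, *Mfap4*, *Mfap5*, *Bgn*, *Ogn*, *Aspn*, *Tnxb*, *Thbs3* and *Comp* (lower), with adjusted p from 0.00760 to 0.0472. The 10 called genes had separate groups, so their direction could not turn in any of these fits. The differences ran from 1.67 to 2.83 for *Spp1*, from 1.22 to 1.70 for *Cd44*, from 0.76 to 1.23 for *Emilin2* and from -1.90 to -1.28 for *Mgp*. Of the 44 genes, 16 overlap a gene on the opposite strand, the called *Cd44* and *Emilin2* among them, and whether counting used the strand is not given in the sources used here.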

How the data were processed

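Stranded mRNA libraries took 480 ng of total RNA each. Per the submitters' processing notes, reads were checked with FastQC 0.11.8, trimmed with cutadapt 1.18 and Trimmomatic 0.39, aligned to mm9 with STAR 2.6.0a and counted with featureCounts, and DESeq2 1.28.0 in R 3.6.0 was named. The deposited table holds a signed score per gene and library (-2.27 to 6.45, 50.5% below 0), not counts. The step from counts to these values, their log base and their reference are not given in the sources used here, so the depth is unknown, no fold, interval or depth-based limit was computed, and the planned count tests could not be used.

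Injury was compared with sham by limma 3.58.1 in R 4.3.3, over 12661 genes with a threshold of 0.05. The fit used group only with empirical Bayes (2 residual and 3.48 prior degrees of freedom) and was tested on simulated data. There it called 19.4% of genes changed by 1 unit and 66.4% of those changed by 2 units. A gene that was not called may therefore still differ. No filter on low values was applied. Named in full were the called members and, in each role, those with the largest and smallest difference, and from each pathway list up to 4 called genes. Members, pathway lists and marker lists were chosen with earlier results of these data known. Gene positions are from GENCODE vM1 on NCBIM37 (mm9), where all 44 symbols matched 1 gene each. Alternatives were a replicate block, quantile normalization, scaling of columns, a robust variance prior, another threshold, a minimum difference and leaving out each library.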

Additional observations from a re-analysis of the deposited data

How the results depend on the processing

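Of the genes described, 3 higher, 7 lower and 941 of all genes were called. With an adjusted p under 0.1 the counts were 5, 17 and 2317, and with a difference of at least 1 unit 2, 3 and 591. Leaving out 1 library at a time gave 0 to 5 higher, 0 to 17 lower and 0 to 1790 of all genes, where the lone library of a group is assumed to vary like the other group. Without the first sham library 0 genes were called by limma, with 1960 at an unadjusted p under 0.05, and without the second sham library 1 was called. Without the first injury library 284 genes were called and the lowest adjusted p of a member was 0.0535.

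With the replicate number as a block, 3 members were higher, 3 lower and 684 of all genes were called, with 5 of the 10 members kept, *Comp* gained (adjusted p = 0.0463) and *Dcn* (0.0506), *Mgp* (0.0530), *Lum* (0.0536), *Nid1* (0.0693) and *Agrn* (0.0739) lost. The labels do not say whether the numbers pair the libraries. The deviations of same-numbered libraries had a correlation of -0.094 over 12661 genes. With 2 pairs this cannot decide whether they were paired. Quantile normalization and scaling of the columns each gave 3 higher and 10 lower, adding *Eln*, *Ogn* and *Aspn*. They called 1061 and 1087 of all genes. The robust prior gave 3 and 6, losing *Agrn* (adjusted p = 0.0506), with 861 of all genes called. The median difference of all genes moved by less than 0.1 under each scaling.

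On leaving out 1 library, the median difference ran from 0.0503 to 0.581 in the provisional matrix, from -0.80 to -0.29 in elastic fibres and from -0.64 to -0.49 in the basement membrane. A sign could turn only where the groups overlapped, which they did in no called member. It turned in 9 members. Their differences ran from -0.63 to 0.0682 for *Fn1*, -0.28 to 0.58 for *Tnc*, -0.39 to 0.0137 for *Postn*, -0.21 to 0.0719 for *Fbn1*, -0.17 to 0.0314 for *Efemp2*, -1.54 to 0.11 for *Mfap4*, -1.03 to 0.0662 for *Mfap5*, -0.75 to 0.34 for *Cilp* and -0.22 to 0.43 for *Srpx2*. The cause was not tested. Some uncalled members whose sign was kept also moved. They ran from 0.30 to 0.96 for *Vcan*, 0.64 to 1.31 for *Thbs1* and -0.87 to -0.27 for *Prelp*. For *Sparcl1* the range was -1.66 to -0.72, for *Nid2* -0.59 to -0.21, for *Thbs2* -0.38 to -0.11 and for *Mfap2* -0.48 to -0.16. Count-based fits and a filter on low values were not run, because the values are not counts and show no abundance.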
